A study of Homo sapiens with 4 samples.

Results

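The genes followed here were 10 regulators of the G1/S step, the D cyclins CCND1, CCND2 and CCND3, the E cyclins CCNE1 and CCNE2, the kinases CDK4, CDK6 and CDK2, and the kinase inhibitors CDKN1B (p27) and CDKN1C (p57). All 10 were found by symbol among the 63568 gene identifiers of the count files, and all 10 passed the filter on low counts. CCNE1 and CDKN1B were chosen by their rise after USP47 knockdown in these same libraries, and the other 8 were set beside them as regulators of the same step of the cell cycle. The rise of CCNE1 and CDKN1B is therefore described below without a p-value. The other 8 and the functional lists below were also chosen with earlier results of these data known. Their adjusted p-values therefore do not come from a choice made blind to these data.

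Cells pass from G1 into S phase when cyclin-dependent kinases (CDKs), switched on by cyclins, phosphorylate the retinoblastoma protein and free the E2F factors that it holds. D cyclins bind CDK4 and CDK6 and respond to mitogens, whereas E cyclins bind CDK2 later in G1. The CIP/KIP inhibitors p21, p27 and p57 bind these cyclin-CDK complexes and block CDK2 in particular, and the INK4 inhibitors bind CDK4 and CDK6 alone. Cyclin E and p27 oppose each other at CDK2, and both are destroyed by ubiquitin ligases, cyclin E through FBXW7 and p27 through SKP2. Their protein amounts are thus set largely after transcription, and RNA-Seq measures only the transcripts.

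RNA-Seq was performed on HGC-27, an established gastric carcinoma cell line, after lentiviral infection with either scrambled control shRNA (2 libraries) or shRNA against USP47, a deubiquitinase (2 libraries). Per the study's methods, infected cells were kept as stable lines under puromycin, so both groups carry a lentiviral insertion, and whether the 2 knockdown libraries hold the same USP47 shRNA is not stated. The series' design text calls the libraries biological duplicates, while the study's methods describe triplicate RNA extraction and independent biological replicates. The 2 libraries per group held here are not tied to named cultures, so p-values measure the spread between these libraries. Libraries held 15649899 to 20140273 counts on genes. The 2 libraries of each group differed by more than counting noise, with a chi-square per degree of freedom of 5.43 between the control libraries and 19.5 between the knockdown libraries. USP47 itself lay at 80.0 and 66.1 CPM with control shRNA and at 36.0 and 21.5 CPM with USP47 shRNA, where CPM is the count scaled to the library total after TMM normalization and is used throughout. Its log2 fold change was -1.34 (standard error 0.21), with an adjusted p of 0.00362 in edgeR's quasi-likelihood test. Epithelial markers were sparse in these cells, with the 8 listed summing to between 6.25 and 10.6 CPM per library, KRT18 and KRT19 at 0 or 1 count each, and CLDN4 the highest by group mean (41 to 77 counts). Of the 6 epithelial markers tested, EPCAM (3 to 12 counts) and CLDN7 (13 to 68 counts) were called lower with USP47 shRNA. Over all genes tested, 9.56% were called lower. The part of these markers in the results below was not tested. Among markers of other cell types, PTPRC of blood cells had 8 to 12 counts and was not called (log2 fold change -0.01), and ALB of liver had 0 to 2 counts.

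The largest changes among the 10 genes were those of CCNE1, which drives CDK2 at the G1/S boundary, and CDKN1B, which restrains it. CCNE1 transcripts stood at 2.26 times and CDKN1B transcripts at 2.18 times their control level in the knockdown cells, and in both genes the 2 groups of libraries lay far apart. CCNE1 (GRCh37 chromosome 19, 30302898 to 30315219) was at 7.37 and 8.003 CPM with control shRNA and at 15.8 and 19.0 CPM with USP47 shRNA, which is 7.69 ± 0.448 against 17.4 ± 2.26 CPM (SD, n = 2 per group). The log2 fold change was 1.17 with a standard error of 0.16. Its raw counts were modest, 125 and 157 against 329 and 273. CDKN1B (GRCh37 chromosome 12, 12838432 to 12875303) had nearly identical control values, 39.5 and 39.6 CPM, against 79.2 and 93.6 CPM in the knockdown. This is a log2 fold change of 1.13 with a standard error of 0.13. In each gene the lower knockdown library lay well above the higher control library.

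The promoters of CCNE1 and CDKN1B are shown because these were the 2 genes chosen by their rise in these libraries. They were taken from RefSeq (GRCh38.p14), 250 bases before to 50 bases after the annotated start, and are written 5′ to 3′ on the gene's strand. Capitals mark the GC box GGGCGG and the CCAAT box CCAAT on either strand, and the marked words do not overlap. The windows are chr19:29811741-29812040 for CCNE1 and chr12:12717118-12717417 for CDKN1B, both on the plus strand.
CCNE1: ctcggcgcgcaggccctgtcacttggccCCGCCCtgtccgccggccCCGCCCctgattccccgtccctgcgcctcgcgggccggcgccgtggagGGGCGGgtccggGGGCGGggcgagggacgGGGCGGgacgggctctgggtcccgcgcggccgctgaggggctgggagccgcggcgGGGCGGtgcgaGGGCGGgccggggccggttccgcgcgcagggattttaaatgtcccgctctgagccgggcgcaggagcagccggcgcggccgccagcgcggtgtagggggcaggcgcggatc
CDKN1B: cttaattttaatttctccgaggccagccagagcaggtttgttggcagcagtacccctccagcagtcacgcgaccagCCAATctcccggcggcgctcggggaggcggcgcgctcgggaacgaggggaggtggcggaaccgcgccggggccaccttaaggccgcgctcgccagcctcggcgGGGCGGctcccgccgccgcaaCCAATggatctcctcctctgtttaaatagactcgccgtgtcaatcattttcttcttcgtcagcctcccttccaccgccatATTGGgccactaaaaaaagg

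Both promoters are GC-rich (81.0% for CCNE1 and 62.3% for CDKN1B), and they differ in the words they hold. The CCNE1 promoter holds the GC box 7 times and no CCAAT box, and the CDKN1B promoter holds the GC box once and the CCAAT box 3 times. Among 35116 RefSeq promoters of the same length, 45.0% hold the GC box and 34.6% the CCAAT box. Of words that E2F factors are known to bind, neither window holds TTCCCGC, which 6.55% of promoters hold, nor TTGGCGC, found in 3.04%, nor TTCGCGC, found in 2.24%. Also absent from both windows, searched like the others on either strand, are the FOXO word TGTTTAC (3.42%), the AP-1 word TGAGTCA (4.95%) and the E-box CACGTG (7.26%). RefSeq promoters were matched for 5 of the 10 genes, the others being CCND3, CDK4 and CDK6. Of the 8 promoters of these 5 genes, 2 hold the E-box. These are the 1 promoter of CDK4, which holds it 3 times, and 1 of CDK6. The FOXO word is in 1 promoter of CCND3. A match describes the sequence and is not evidence of binding.

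**Figure D1:**
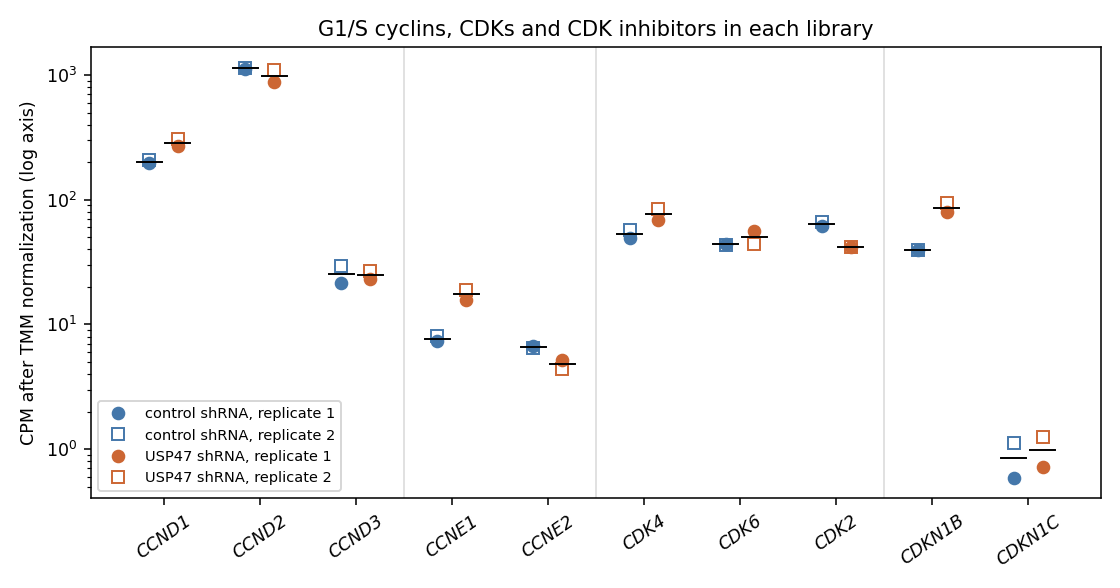
CPM after TMM normalization (log axis) of the 10 genes in each of the 4 libraries, with filled circles for replicate 1, open squares for replicate 2 and black bars for group means. CCNE1 and CDKN1B show the widest gaps between control (blue) and USP47 shRNA (orange) libraries, CDK2 lies lower in both knockdown libraries, and CDKN1C sits near 1 CPM in every library.

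Of the 8 genes other than CCNE1 and CDKN1B, 3 had an adjusted p under 0.05 when edgeR tested 21932 genes, CCND1 and CDK4 higher and CDK2 lower. With the 2 genes that this contrast had chosen, 5 of the 10 lay past it. The same test called 16.1% of all genes tested, 6.52% higher and 9.56% lower. Because the contrast helped to choose the genes, nothing is read from that difference in share. In 8 of the 10 genes the groups of libraries did not overlap (5 higher and 3 lower with USP47 shRNA), in a data set where 61.0% of all genes did not overlap, 29.3% higher and 31.7% lower. The median log2 fold change was 0.16 over the 10 genes and -0.0083 over all genes tested.

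Among the D cyclins, the mitogen-responsive partners of CDK4 and CDK6, only CCND1 passed the test. CCND1 (GRCh37 chromosome 11, 69455924 to 69469242) was at 198 and 206 CPM in control cells and at 268 and 305 CPM in knockdown cells. It rose by 0.50 on the log2 scale (standard error 0.14, adjusted p = 0.0322). CCND2 (chromosome 12, 4378937 to 4414519) was at 1125 and 1142 CPM with control shRNA and at 885 and 1089 CPM with USP47 shRNA. Both knockdown libraries lay below both controls, but replicate 2 did so narrowly, and the difference of -0.20 (log2, standard error 0.16, 95% interval -0.55 to 0.15, adjusted p = 0.412) was within the spread. CCND3 (chromosome 6, 41902672 to 42018095) overlapped between groups, at 21.5 and 29.6 CPM against 23.0 and 26.6 CPM (log2 fold change -0.05, standard error 0.17, adjusted p = 0.877). Its 95% interval ran from -0.43 to 0.33.

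The calls of these cyclins depended on single libraries. CCND1 kept a similar log2 fold change without control shRNA replicate 1 (0.47, adjusted p = 0.437) and without control shRNA replicate 2 (0.52, adjusted p = 0.278) but lost its call, with adjusted p from 1.22e-06 to 0.437 over all alternatives. CCND2 was called lower without USP47 shRNA replicate 2 (-0.35, adjusted p = 0.013, range 0.013 to 0.81). In these fits 1 group has a single library, which is assumed to vary like the others.

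The other E cyclin did not share the rise of CCNE1. CCNE2 (GRCh37 chromosome 8, 95891998 to 95908906), the paralog of CCNE1, was at 6.72 and 6.47 CPM with control shRNA and at 5.19 and 4.39 CPM with USP47 shRNA. Both knockdown libraries lay below both controls. The difference of -0.45 (log2, standard error 0.18, adjusted p = 0.121) did not pass the threshold, and the counts behind it were few, 114 and 127 against 108 and 63. It passed in the fit without USP47 shRNA replicate 1 (-0.58, adjusted p = 0.0376, range over alternatives 0.0376 to 0.517).

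Since both paralogs were measured in the same library, their share does not depend on how libraries were scaled. By the authors' FPKM values, which divide by gene length, CCNE1 made up 65.3% and 67.9% of the E cyclin transcripts with control shRNA and 83.9% and 88.1% with USP47 shRNA. The make-up of the D cyclins differed too. CCND2 supplied 77.7% and 76.8% of D cyclin transcripts with control shRNA and 67.4% and 69.1% with USP47 shRNA, whereas CCND1 went from 20.3% and 20.6% to 30.2% and 28.6%. CCND3 stayed a minor form, between 2.0% and 2.69% in every library. The summed D cyclins exceeded the summed E cyclins 46.0 and 45.3 times with control shRNA, against 25.0 and 26.2 times with USP47 shRNA. CCNE1 was chosen by its rise in these libraries. Its larger share of the E cyclins and the lower ratio of D to E cyclins follow in part from that choice. With 2 libraries against 2, an exact two-sided permutation test of such a ratio cannot give a p below 0.333, so these shares were not tested.

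**Figure D2:**
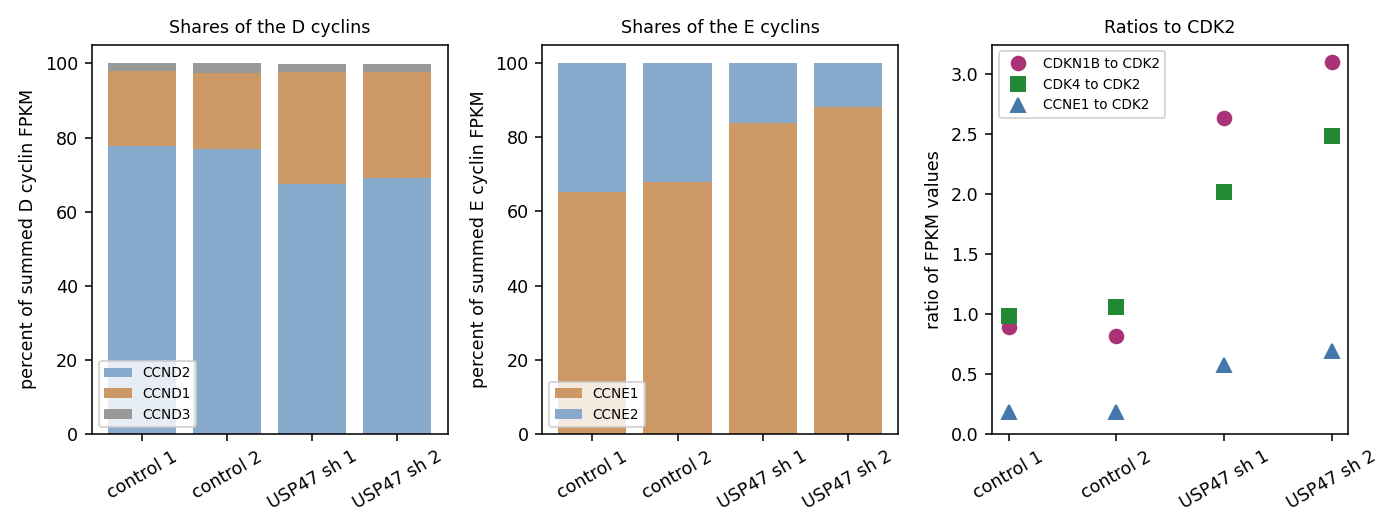
Composition within each of the 4 libraries from the authors' FPKM values, as percent of the summed D cyclins (left), percent of the summed E cyclins (middle) and ratios to CDK2 (right); no error bars, since each bar or point is 1 library. CCND1 takes 28.6% to 30.2% of the D cyclins in the knockdown libraries against 20.3% to 20.6% in controls. CDKN1B exceeds CDK2 only in the knockdown libraries, and CDKN1B and CCNE1 were chosen by their rise there.

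Of the 3 kinases, CDK2 fell, CDK4 rose and CDK6 did not pass the test. CDK2 (chromosome 12, 56360565 to 56366573), the partner of cyclin E and the main target of p27, was at 61.5 and 66.9 CPM with control shRNA and at 41.8 CPM in both knockdown libraries. It fell by 0.62 on the log2 scale (standard error 0.13, adjusted p = 0.0104). CDK4 (chromosome 12, 58141510 to 58149796), a partner of D cyclins, was at 49.4 and 57.5 CPM in controls and at 68.7 and 84.4 CPM in the knockdown, a rise of 0.52 on the log2 scale (standard error 0.15, adjusted p = 0.0380). CDK6 (chromosome 7, 92234235 to 92465887), which shares the D cyclins with CDK4, was at 44.04 and 43.7 CPM against 56.6 and 44.2 CPM. Only replicate 1 of the knockdown stood clear of the controls, and the difference of 0.20 (log2, standard error 0.15, 95% interval -0.12 to 0.52, adjusted p = 0.363) did not pass.

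CDK2 lost its call without control shRNA replicate 1 (-0.68, adjusted p = 0.0945) and without control shRNA replicate 2 (-0.56, adjusted p = 0.159), with adjusted p from 1.46e-07 to 0.159 over the alternatives. For CDK4 the same fits gave 0.41 (adjusted p = 0.446) and 0.63 (adjusted p = 0.126), and fitting every gene unfiltered lost the call as well (0.48, adjusted p = 0.0613, range 3.13e-07 to 0.446). CDK6 was called higher without USP47 shRNA replicate 2 (0.37, adjusted p = 0.011, range 0.011 to 0.926). The log2 fold changes of CCNE1 and CDKN1B ran from 1.04 to 1.31 and from 1.01 to 1.25 over the 10 alternatives, all of them refits of the libraries that chose these genes.

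Of the CIP/KIP inhibitors, CDKN1B was the main form in these cells. By FPKM it made up 79.2% and 75.1% of the summed CDKN1A, CDKN1B and CDKN1C transcripts with control shRNA. With USP47 shRNA it made up 91.8% and 86.7%, a larger share that follows in part from its choice by this contrast. CDKN1C (chromosome 11, 2904443 to 2907005), an imprinted inhibitor, was barely detected, with 10 and 22 counts in controls and 15 and 18 counts in the knockdown. Its log2 fold change of 0.12 has a standard error of 0.42 and a 95% interval from -0.82 to 1.06 (adjusted p = 0.871). Changes within that interval cannot be told apart at this depth.

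No other CDK inhibitor of these families passed the test. CDKN1A (p21), a p53 target, was at 10.3 and 12.6 CPM in controls and at 6.64 and 13.9 CPM in the knockdown, so its 2 knockdown libraries fell on either side of the controls (log2 fold change -0.19, standard error 0.28, adjusted p = 0.675). Without USP47 shRNA replicate 2 it was called lower (-0.79, adjusted p = 0.000101) and without USP47 shRNA replicate 1 it was 0.28 (adjusted p = 0.194), over a range of 0.000101 to 0.968. Of the INK4 inhibitors, CDKN2A (p16) was at 121 and 126 against 116 and 144 CPM. These values count the whole gene and not p16 transcripts alone. CDKN2C (p18) was at 82.0 ± 3.37 against 85.5 ± 8.02 CPM (SD, n = 2 per group). CDKN2B (p15) was at 31.4 ± 2.96 against 28.2 ± 1.87 CPM and CDKN2D (p19) at 3.63 ± 0.450 against 4.48 ± 0.0743 CPM. Adjusted p-values of these 4 genes lay between 0.324 and 0.785, and only CDKN2D had groups that did not overlap.

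**Figure D3:**
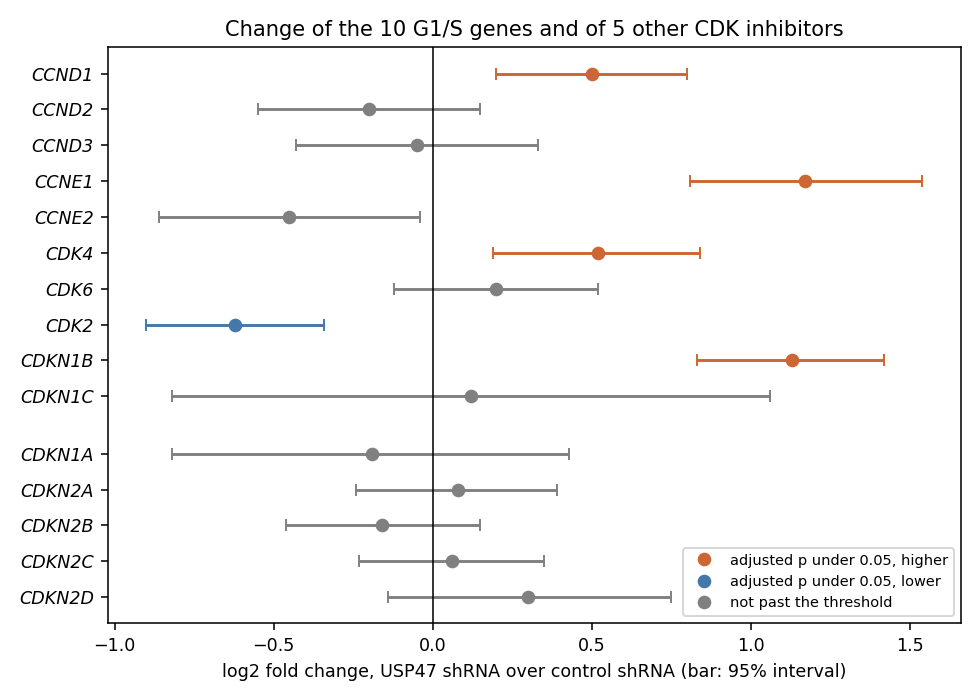
Log2 fold change of USP47 shRNA over control shRNA for the 10 G1/S genes (top) and 5 other CDK inhibitors (bottom), with bars for the 95% interval of edgeR's quasi-likelihood fit. Orange marks genes past an adjusted p of 0.05 and higher, blue those lower and gray the rest; CCNE1 and CDKN1B were chosen by this contrast, at 1.17 and 1.13.

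Compared per length, by TPM within a library, the order in control cells was CCND2 (217 ± 17.2 TPM, SD, n = 2), CCND1 (57.3 ± 3.54), CDK4 (23.0 ± 0.416), CDK2 (22.5 ± 0.690), CDKN1B (19.3 ± 1.70), CCND3 (6.53 ± 0.897), CDK6 (4.90 ± 0.469), CCNE1 (4.09 ± 0.13), CCNE2 (2.06 ± 0.239) and CDKN1C (0.444 ± 0.158). CDK4 and CDK2 did not differ beyond their spread, and their order changed between the control libraries. In the knockdown libraries CDKN1B ranked 3 of the 10 at 38.5 ± 3.35 TPM, from rank 5 in controls, CCNE1 ranked 6 at 8.49 ± 0.634 TPM, from rank 8, and CDK2 ranked 5 at 13.6 ± 2.77 TPM, from rank 4. TPM values share the total of a library with the 7SL RNA gene RN7SL2, which took 20.8% to 24.1% of it, so only the order and ratios within a library are read here.

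CDKN1B and CDK2 were near parity in control cells, and the balance shifted in the knockdown. The ratio of CDKN1B to CDK2 by FPKM was 0.890 and 0.820 with control shRNA and 2.63 and 3.10 with USP47 shRNA. CCNE1 also gained on CDK2, from 0.182 and 0.181 to 0.574 and 0.690, as did CDK4, from 0.986 and 1.06 to 2.02 and 2.48. CDKN1B and CCNE1 were chosen by their rise, so their ratios to CDK2 follow in part from that choice. The ratio of CDKN1B to CCNE1 was 4.90 and 4.52 in controls and 4.58 and 4.5 in the knockdown. That ratio follows from the choice of 2 genes with a like rise. The ratio of CDK4 to CDK6 overlapped between groups, at 4.34 and 5.09 against 4.70 and 7.39.

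Among genes that act on these proteins after translation, 3 of 17 tested passed, 1 higher and 2 lower, with a list median of -0.063. Of all genes tested, 16.1% passed, 6.52% higher and 9.56% lower. SKP2, the F-box protein that marks p27 for destruction, was at 96.1 ± 2.46 CPM in controls and at 61.4 ± 4.73 CPM in the knockdown and fell by 0.65 on the log2 scale (standard error 0.13, adjusted p = 0.00921). CDC34, a ubiquitin-conjugating enzyme that works with SCF ligases, fell from 52.4 ± 6.75 to 36.7 ± 6.05 CPM (log2 fold change -0.52, standard error 0.15, adjusted p = 0.0462). FBXW7, the F-box protein for cyclin E, rose from 17.0 ± 0.165 to 23.7 ± 0.897 CPM (0.48, standard error 0.14, adjusted p = 0.0389). The ratio of CDKN1B to SKP2 transcripts by FPKM was 0.572 and 0.553 with control shRNA, against 1.67 and 2.20 with USP47 shRNA. CDKN1B was chosen by its rise, so this ratio follows in part from that choice. The DESeq2 Wald test did not call CDC34 (adjusted p = 0.0641) or FBXW7 (adjusted p = 0.0778). FBXW7 was not called with library size alone (0.104) or unfiltered (0.0724) either, nor CDC34 with DESeq2 size factors (0.0545), and over all alternatives adjusted p lay between 1.59e-08 and 0.107 for SKP2, between 1.3e-06 and 0.397 for CDC34 and between 0.00103 and 0.347 for FBXW7. SKP2 lost its call without control shRNA replicate 1 (-0.67, adjusted p = 0.106) and without control shRNA replicate 2 (-0.62, adjusted p = 0.107), and CDC34 and FBXW7 lost theirs in the same fits (CDC34 -0.64 and -0.38, FBXW7 0.49 and 0.46).

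Of 13 pocket protein, E2F and DP genes, only E2F4, a repressive E2F of resting cells, passed the test. It was at 69.0 ± 2.65 CPM in controls and 92.4 ± 7.95 CPM in the knockdown (log2 fold change 0.42, standard error 0.13, adjusted p = 0.0498), at the edge of the threshold. It lost its call with library size alone (adjusted p = 0.0647), unfiltered (0.0823), under the stricter minimum of 10 counts per library (0.0505) and without either control library (adjusted p = 0.499 without replicate 1 and 0.312 without replicate 2), over a range of 9.63e-05 to 0.499. The list median was -0.072, with 3 genes higher and 5 lower without overlap between groups. Over all genes tested, 29.3% lay higher and 31.7% lower without overlap, and 6.52% were called higher.

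Of 24 genes known to be activated by E2F at G1/S, CCNE1 among them, 1 was called higher, CCNE1 itself, and 2 lower. The shares over all genes tested were 6.52% higher and 9.56% lower. GINS1, a subunit of the replicative helicase complex, fell from 38.4 ± 2.82 to 17.1 ± 0.753 CPM (log2 fold change -1.16, standard error 0.14, adjusted p = 0.000916). ORC1, which binds replication origins, fell from 37.0 ± 1.92 to 24.1 ± 0.923 CPM (-0.62, standard error 0.13, adjusted p = 0.0125), a call lost without control shRNA replicate 1 (-0.67, adjusted p = 0.104) and without control shRNA replicate 2 (-0.57, adjusted p = 0.164, range 1.46e-06 to 0.164). The list median was -0.10, and 19 of the 24 lay below 0, as did 11144 of all 21932 genes tested. CCNE1 was chosen by this contrast, so its place in this list is a description.

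Among later cyclins and CDK1, 1 of 4 genes tested passed, the median was -0.23, and CCNA1 was not tested. The gene that passed was lower, as were 9.56% of all genes tested. CDK1, the mitotic kinase, was at 68.1 ± 6.72 against 44.9 ± 8.40 CPM (log2 fold change -0.60, standard error 0.15, adjusted p = 0.0275). Its call was lost with library size alone (-0.66, adjusted p = 0.061), without control shRNA replicate 1 (-0.49, adjusted p = 0.29) and without control shRNA replicate 2 (-0.70, adjusted p = 0.0572), over a range of 1.49e-08 to 0.29. In bulk RNA, fewer cells in a cycle phase and less transcript per cell cannot be told apart.

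Of MYC and the 4 FOXO factors, which are known to act on the transcription of D and E cyclins or CDKN1B, 2 of 5 were called higher. Over all genes tested, 6.52% were called higher. The log2 fold change lay above 0 in 4 of the 5, as in 10788 of all 21932 genes tested. MYC, an activator of CCND2 and CDK4 among others, went from 354 ± 26.1 to 534 ± 117 CPM (log2 fold change 0.59, standard error 0.17, adjusted p = 0.0392). FOXO4, a FOXO factor that can activate CDKN1B, went from 7.15 ± 0.193 to 11.8 ± 0.965 CPM (0.72, standard error 0.16, adjusted p = 0.0161). Without control shRNA replicate 1 the values were 0.52 for MYC (adjusted p = 0.417) and 0.69 for FOXO4 (adjusted p = 0.17), and without control shRNA replicate 2 they were 0.67 (adjusted p = 0.17) and 0.74 (adjusted p = 0.114). Over all alternatives adjusted p lay between 7.05e-12 and 0.417 for MYC and between 5.38e-05 and 0.17 for FOXO4.

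**Figure D4:**
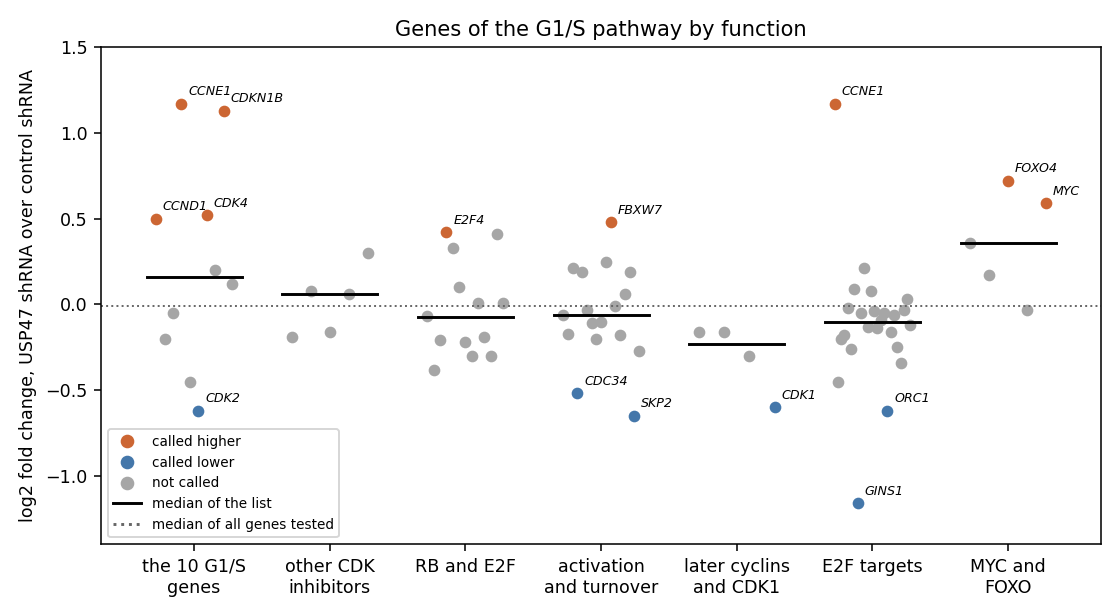
Log2 fold change of USP47 shRNA over control shRNA for each tested gene of 7 functional lists, one point per gene, with black bars for list medians and a dotted line for the median of all genes tested (-0.0083). Named points passed an adjusted p of 0.05 (orange higher, blue lower); CCNE1 and CCNE2 appear in 2 lists each, and GINS1 at -1.16 is the lowest point.

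Neighboring genes bear on how well some of these counts can be assigned, since the sources do not state whether counting used the strand. By the GENCODE annotation on GRCh37, CDK4 shares 1369 exonic bases with TSPAN31 on the opposite strand, which had 182 and 195 counts in controls and 255 and 197 in the knockdown. CCNE2 shares 1629 exonic bases with INTS8 on the opposite strand, CCND1 shares 497 with LTO1, CDK2 shares 565 with ENSG00000258554 and 89 with PMEL, and CCND2 shares 162 with CCND2-AS1. ENSG00000258554 had 0 counts in every library, PMEL 14 to 36 and CCND2-AS1 3 to 9. Counts of INTS8 and LTO1 are not given here. Their part in the values of CCNE2, the E cyclin shares and CCND1 was not tested. On its own strand CCND2 shares 999 exonic bases with ENSG00000285901, an annotated protein-coding gene for which no count was found among the identifiers of the count files. No gene overlaps CCNE1, and CDKN1B shares no exonic base with the gene that overlaps it, GPR19. Pseudogene copies took few reads, with 0 to 3 counts for each of CDK4P1, CCND2P1, CCND3P1 and CCND3P2.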

How the data were processed

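The 4 RNA-Seq libraries of HGC-27 cells were put into their 2 groups by the sample titles. The authors checked reads with FastQC, trimmed bases below a quality score of 20, mapped them to hg19 with STAR 2.7.5c and used SAMtools 1.9 to drop duplicate and poor reads. Removing duplicates without molecular identifiers lowers counts of abundant genes most, such as CCND2. Per the labels' processing notes, featureCounts and DESeq2 1.26.0 were also used, while the annotation and strand setting are not given in the sources used here. The methods and the labels name different library kits. The authors deposited, per library, a raw count for each gene. The authors also deposited FPKM and TPM values, which scale by gene length and library. Counts were tested, and FPKM and TPM served only for levels between genes and ratios within a library. Intervals cover the spread between libraries only.

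Counts were filtered with filterByExpr, scaled by TMM and compared with edgeR 4.0.16 in R 4.3.3 (robust quasi-likelihood fit, two-sided, Benjamini-Hochberg adjustment over 21932 genes, adjusted p under 0.05). Each standard error is the absolute log2 fold change divided by the root of F. Symbols matched 43631 of 63568 identifiers. The 10 genes and the functional lists were chosen with earlier results of these data known. Of each list, every called gene up to the 4 with the smallest p was named, with all 5 other CDK inhibitors. Positions come from GENCODE release 44 lifted to GRCh37 and promoters from RefSeq. These positions need not be those used for counting. Alternatives were DESeq2 1.42.0, DESeq2 size factors, library size alone, no filter, at least 10 counts in every library, the replicate number as a block, and each library left out. A listed marker gene of another cell type is not reported here.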

Additional observations from a re-analysis of the deposited data

How the results depend on the processing

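Of the 10 genes, 5 were called (4 higher, 1 lower), against 16.1% of all genes tested (6.52% higher, 9.56% lower). CCNE1 and CDKN1B, chosen by this contrast, are part of every count of the 10, so these counts follow in part from that choice. The count was also 5 with the DESeq2 Wald test, DESeq2 size factors, library size alone and at least 10 counts in every library. It was 4 with no filter. Without 1 library it ranged from 2 to 7 (higher 2 to 5, lower 0 to 2), lowest without either control library. The 3527 genes called in all (1430 higher, 2097 lower) became 2288 with the DESeq2 Wald test (1174 lower) and 2800 with library size alone (881 higher), a scaling under which the median over all genes was -0.072 in place of -0.0083. Without 1 library they ranged from 1230 to 7270 (higher 323 to 3770, lower 907 to 3576), highest without a knockdown library, where the spread rests on the control pair. The log2 fold change of USP47 ranged from -1.75 to -1.01 in those fits.

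The replicate number as a block (replicate block) gave 7422 genes (3530 higher, 3892 lower) and 6 of the 10 genes, 2 of them lower, CCNE2 being added (adjusted p = 0.0426). Same-numbered libraries deviated together with a correlation of 0.213, but no source says that a number marks a shared batch, so the libraries share only a number.

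Directions turned in 5 genes, all uncalled in the analysis as reported. CDKN2C was -0.01 with library size alone and -0.03 without USP47 shRNA replicate 2, a fit that also gave -0.27 for CDKN1C and -0.08 for CDKN2A. CDKN1C was -0.23 without control shRNA replicate 1. Leaving out single libraries, the ranges were -0.27 to 0.68 for CDKN1C, -0.26 to 0.20 for CCND3, -0.79 to 0.28 for CDKN1A, -0.08 to 0.24 for CDKN2A and -0.03 to 0.16 for CDKN2C. CCND3 was 0.20 without control shRNA replicate 2 and 0.06 without USP47 shRNA replicate 1, and CDKN1A was 0.28 in the latter. Depth limits CDKN1C, with 10 to 22 counts per library. The order of the 10 genes by FPKM is that by TPM by construction.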

Other observations

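The genes whose pattern over the 4 libraries was most like that of CCNE1 and CDKN1B were found by the root mean square difference of log2 CPM, each gene taken relative to its control mean, over the 15791 genes whose average log2 CPM reached 1. Nearest to CDKN1B was MARCHF8, a membrane-bound ubiquitin ligase, at a difference of 0.011 and a log2 fold change of 1.12 (12.6 to 27.5 CPM). Nearest to CCNE1 were DDX11L16 (0.025), a pseudogene whose reads are uncertain because near-identical copies exist, and MYOM2 (0.034). PRKAR2A, a regulatory subunit of protein kinase A, was next for both genes, at 0.034 from CCNE1 and 0.037 from CDKN1B, with 67.4 CPM in control cells and 149 CPM in knockdown cells. The second place beside CDKN1B went to a further copy of DDX11L16 (ENSGR0000227159, 0.030). With 4 libraries such likeness is a description of size and spread.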
